A study of Mus musculus with 23 samples.

Results

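Knockdown of Etv5 at the 2-cell stage was examined by comparing the 2 siEtv5 libraries of mouse 2-cell embryos with the 3 siCtrl libraries of the same stage, 5 of the 23 RNA-seq libraries of the series. The libraries were chosen by their labels alone. The series silenced the transcription factors Mlx or Rfx1 to study zygotic genome activation, the onset of transcription from the embryo's own genome. Silencing of Etv5 served the paper as a negative control. By the paper, promoters of genome activation genes were highly enriched at the ETV5 motif, but oocytes and zygotes hardly expressed the factor. The paper reports little change of the transcriptome after Etv5 silencing. Zygotes and 2-cell embryos were profiled. Oocytes of the hybrid strain B6D2F1 (C57BL/6xDBA/2) were injected while still immature, with the germinal vesicle intact, with a mixture of siRNAs against Etv5 or with control siRNA, so the siCtrl embryos had also been injected. All oocytes were then matured in culture with hCG and fertilized in vitro, and after the zona pellucida was removed with protease E the blastomeres were harvested at the late 2-cell stage, 36 hours after fertilization by the labels. The paper's methods instead describe sperm injection and later harvest times, and the labels were followed here. The labels do not say whether the libraries of a group came from separate collections of embryos, and p-values therefore measure the spread between these libraries.

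ETV5 belongs to the ETS transcription factors and binds DNA through a winged helix domain at sites around the core GGAA, and with ETV1 and ETV4 it forms the PEA3 group that acts downstream of FGF and ERK signaling. The mouse 2-cell embryo transcribes a brief set of genes found in few other cells, among them the Zscan4 genes, which code for SCAN domain zinc finger proteins, the Eif1a-like genes, related to a translation initiation factor, and the Usp17, Tdpoz and Obox families. During the same hours the mRNAs that the oocyte stored are degraded.

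Depth was close in the 2 groups, with 727, 781 and 967 Mb of aligned bases in siCtrl and 792 and 811 Mb in siEtv5. Expression was read as FPKM, fragments scaled to transcript length and library size, summed over the transcripts of a gene. Between 10567 and 10729 genes reached 1 FPKM in siCtrl, and between 11096 and 11135 in siEtv5. Pearson's r of log2(FPKM + 1) across 11171 genes was 0.897 to 0.905 between siCtrl libraries, 0.930 between the siEtv5 libraries and 0.876 to 0.900 between groups; genes are not independent replicates. Of 8 fixed 2-cell markers, 6 reached 1 FPKM, with summed levels of 435 to 680 FPKM in siCtrl and 1568 to 1870 FPKM in siEtv5, while Tcstv1 and Tcstv3 were listed at 0 in all 5 libraries. The 6 oocyte markers summed to 340 to 392 FPKM in siCtrl and 535 to 547 FPKM in siEtv5. Cumulus and granulosa markers summed to 11.7 to 15.7 and 11.7 to 16.1 FPKM, with Amh, Fshr, Ptx3 and Inhba at 0. Tnfaip6, at 8.12 to 15.7 FPKM, made up most of each sum. Foxl2, of the same list, was at 0 in all 3 siCtrl libraries and at 1.85 and 1.90 FPKM in siEtv5. Of the 4 listed blood markers, 3 were annotated. They summed to at most 0.833 FPKM, with Hba-a1 and Ptprc at 0. Longer lists held a few members at higher levels, named after their values were seen. Amhr2, a receptor of granulosa cells, stood at 28.7, 65.0 and 38.3 rescaled FPKM in siCtrl and 25.5 and 25.2 in siEtv5 (limma adjusted p = 0.374). Hba-a2, an alpha globin gene, stood at 31.1, 70.2 and 39.5 rescaled FPKM against 43.5 and 39.7, and Lyz2, a lysozyme of myeloid cells, at most at 8.62. The part of other cell types in the results was not tested. Sperm markers summed to 0 to 4.72 FPKM in siCtrl and 4.89 to 14.0 FPKM in siEtv5, with Prm1 and Tnp2 at 0.

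The targeted gene was lower in both siEtv5 libraries. Etv5 (mm9 chr16:22381386-22439643, minus strand) stood at 49.98, 42.9 and 44.4 rescaled FPKM in siCtrl and at 8.97 and 5.61 rescaled FPKM in siEtv5. The groups did not overlap, and the siEtv5 mean of 7.29 ± 2.38 (SD, n = 2) was 15.9% of the siCtrl mean of 45.8 ± 3.72 (SD, n = 3). Its difference on the log2(FPKM + 1) scale was -2.52 ± 0.27 (SE), with a limma adjusted p of 0.0227. The exact two-sided permutation test over the 5 libraries gave p = 0.2, the smallest that 3 against 2 libraries allow. Its 2379-base last exon had a mean read coverage per 100 Mb aligned of 6.44 to 7.20 in siCtrl and 0.892 to 1.34 in siEtv5.

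Across 11172 tested genes, 28 were called, 0.251%. A call needed a Benjamini-Hochberg adjusted p under 0.05 in limma together with more than a 2-fold change. Of these, 11 were higher in siEtv5 (0.0985% of tested genes) and 17 were lower (0.152%). At an unadjusted p under 0.05 there were 1731 genes, 845 higher and 886 lower, and the median difference over all tested genes was 0.04 on the log2 scale. In all 28 called genes the 2 groups did not overlap, and the exact permutation test gave p = 0.2 for each, the smallest possible. Both siEtv5 libraries stood above every siCtrl library in 2122 tested genes and below every one in 1864. The number of calls was sensitive to single libraries and to the filter: leaving out 1 library at a time gave 1 to 16 calls, and testing every gene with any signal gave 1, Romo1. Differences on the log2(FPKM + 1) scale understate the change of genes with low levels, and in pooled embryos fewer cells that express a gene and less RNA per cell cannot be told apart.

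**Figure D1:**
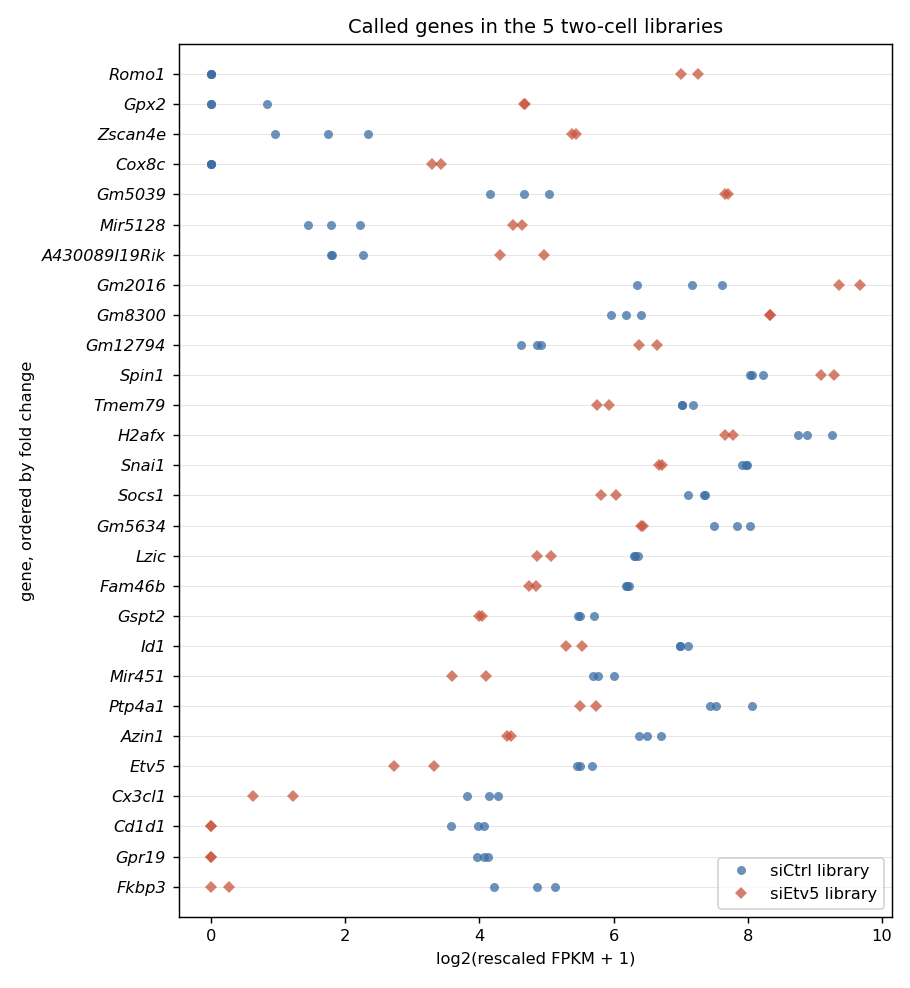
Rescaled FPKM of the 28 called genes in each of the 5 libraries, on a log2(FPKM + 1) axis, with a blue circle per siCtrl library, a red diamond per siEtv5 library and genes ordered by their difference. The 17 lower genes run from Fkbp3 at -4.60 to Tmem79 at -1.23, and the 11 higher genes from Spin1 at 1.08 to Romo1 at 7.13.

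Socs1, Id1, Snai1, Cx3cl1, Gpr19 and Cd1d1 were among the genes called lower. Socs1, a feedback inhibitor of JAK-STAT signaling, stood at 164, 137 and 163 rescaled FPKM in siCtrl and 55.5 and 64.8 in siEtv5, a difference of -1.35 ± 0.18 (SE; limma adjusted p = 0.0449). Id1, which binds basic helix-loop-helix factors and keeps them off DNA, stood at 137, 126 and 126 rescaled FPKM in siCtrl and 45.3 and 38.0 in siEtv5 (-1.62 ± 0.18; limma adjusted p = 0.0227). Snai1, a zinc finger repressor, had 253, 249 and 239 rescaled FPKM in siCtrl and 102 and 105 in siEtv5 (-1.25 ± 0.14; limma adjusted p = 0.0238). These 3 genes were tight within each group, with the siEtv5 mean at 38.9% of siCtrl for Socs1, 32.1% for Id1 and 41.8% for Snai1. Cx3cl1, a membrane-bound chemokine, fell from 16.6, 18.4 and 13.1 to 1.33 and 0.548 rescaled FPKM (-3.15 ± 0.37; limma adjusted p = 0.0316). Gpr19, an orphan G protein-coupled receptor, was at 14.6, 15.7 and 16.4 rescaled FPKM in siCtrl and was listed at 0 in both siEtv5 libraries. Cd1d1, which presents lipid antigens, was at 14.7, 10.9 and 15.7 rescaled FPKM in siCtrl and likewise at 0 in both siEtv5 libraries. Both genes lie low in siCtrl, and an FPKM of 0 can also be a failed estimate, so no fold is given for them.

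The other genes called lower are given next. H2afx, the histone variant phosphorylated at DNA breaks, stood at 611, 471 and 430 rescaled FPKM in siCtrl and 200.6 and 218 in siEtv5 (-1.25 ± 0.17; limma adjusted p = 0.0495). Azin1, which binds antizyme and so raises ornithine decarboxylase and polyamine synthesis, was at 103, 89.5 and 82.6 rescaled FPKM against 21.1 and 20.2 (-2.09 ± 0.20; limma adjusted p = 0.0143). Ptp4a1, a prenylated phosphatase, was at 267, 173 and 183 rescaled FPKM against 44.3 and 52.5 (-2.05 ± 0.23; limma adjusted p = 0.0238). In both Azin1 and Ptp4a1 the fall lay mostly in the last exon, as given with the exon values. Gspt2, a translation termination factor, had a siEtv5 mean at 32.7% of siCtrl, Fam46b, of a family of poly(A) polymerases, at 36.6%, Lzic at 37.9%, Gm5634 at 38.1% and Tmem79 at 42.2%. Fkbp3, a nuclear peptidyl-prolyl isomerase, stood at 17.6, 28.1 and 34.0 rescaled FPKM in siCtrl and at 0 and 0.207 in siEtv5. Mir451 was at 53.8, 50.6 and 63.2 rescaled FPKM against 10.99 and 16.2, but its annotated gene is 72 bases long, and the value is not a measure of the mature microRNA.

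Promoters of the called genes were searched for the ETS core in the 6-letter form CCGGAA on either strand, from 250 bases before to 50 bases after the annotated start. A match was present at 5 of the 17 lower genes, 29.4%, and at 1 of the 11 higher genes, Romo1, beside 28.9% of all 11172 tested genes, so the share among the lower genes was that of all genes. Etv5 itself had no match. The promoters of 3 lower genes with a match upstream of the start are shown because they let the sites be read in place, as the 250 bases before the start in mm9, 5′ to 3′ on the gene's strand, with the matched letters in capitals. Socs1 (chr16:10785630-10785879, minus strand) had 3 matches, Lzic (chr4:148859192-148859441, plus strand) 1 at -122 and Gm5634 (chrX:8540102-8540351, minus strand) 1 at -85. The match in Tmem79 lay at +19. A match describes the letters and does not show binding.
Socs1: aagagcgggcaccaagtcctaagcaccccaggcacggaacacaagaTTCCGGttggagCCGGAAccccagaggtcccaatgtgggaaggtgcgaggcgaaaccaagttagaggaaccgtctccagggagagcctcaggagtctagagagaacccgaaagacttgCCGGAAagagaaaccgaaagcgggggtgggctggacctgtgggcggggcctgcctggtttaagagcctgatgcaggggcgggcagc
Lzic: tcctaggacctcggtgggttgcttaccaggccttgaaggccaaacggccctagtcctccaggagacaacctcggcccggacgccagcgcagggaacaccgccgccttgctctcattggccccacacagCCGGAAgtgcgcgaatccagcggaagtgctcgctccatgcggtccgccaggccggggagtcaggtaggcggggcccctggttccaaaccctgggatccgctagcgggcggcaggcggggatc
Gm5634: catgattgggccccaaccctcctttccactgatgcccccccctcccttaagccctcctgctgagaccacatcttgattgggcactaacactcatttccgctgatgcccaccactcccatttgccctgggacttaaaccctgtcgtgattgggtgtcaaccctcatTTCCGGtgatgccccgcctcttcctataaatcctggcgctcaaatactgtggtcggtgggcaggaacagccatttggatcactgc

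The 11 higher genes fell into 2-cell genes and a few others. Among the others, Gpx2, a glutathione peroxidase (chr12:77893322-77896541), was at 0.781, 0 and 0 rescaled FPKM in siCtrl and at 24.4 and 24.6 in siEtv5 (4.40 ± 0.45 on the log2 scale; limma adjusted p = 0.0204). Over all 23 libraries Gpx2 was above 0 in 5 and listed at 0 in 18. Cox8c, a testis isoform of a cytochrome c oxidase subunit, was listed at 0 in all 3 siCtrl libraries and stood at 8.80 and 9.80 rescaled FPKM in siEtv5 (limma adjusted p = 0.0495). Spin1, a reader of methylated histone H3, rose from 267, 260 and 299.8 to 545 and 625 rescaled FPKM (1.08 ± 0.14; limma adjusted p = 0.0418). A430089I19Rik, annotated at 2 loci, had means of 2.92 ± 0.77 (SD, n = 3) and 24.5 ± 8.22 (SD, n = 2) rescaled FPKM. Mir5128 had means of 2.60 ± 0.98 and 22.7 ± 1.41 rescaled FPKM, with an annotated gene of 84 bases.

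Romo1, a small protein of the mitochondrial inner membrane (chr2:155969889-155971530), had the smallest adjusted p. It was listed at 0 in all 3 siCtrl libraries and stood at 127 and 152 rescaled FPKM in siEtv5 (7.13 ± 0.33 on the log2 scale; limma adjusted p = 4.4e-04). Its transcripts are at most 452 bases long. Over the 23 libraries of the series it was listed at 0 in 14 and lay between 36.5 and 244 deposited FPKM in the other 9, with no library in between. Libraries of one group were split in this way in 4 groups: zygote siCtrl, zygote siEtv5, 2-cell siMlx and 2-cell siRfx1 each had 1 library above 0 and 2 at 0. Libraries that share a label were thus also split between 0 and a high value of Romo1.

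The 2-cell genes rose in part. Of 87 listed genes of the 2-cell program, 62 were tested, 5 were called higher and 1, Snai1, was called lower, beside the 0.0985% and 0.152% of all tested genes. The program list and the families were put together with earlier results of these data known, so these counts are a description. At an unadjusted p under 0.05, 28 members were higher (45.2%) and 4 lower (6.45%), beside 7.56% and 7.93% of all tested genes. Both siEtv5 libraries lay above every siCtrl library in 35 members and below in 5. Over all 11172 tested genes these counts were 2122 and 1864. The median difference of the tested members was 0.47 on the log2 scale, beside 0.04 over all genes. It ranged from 0.41 to 1.08 over 14 alternative analyses, with more members higher than lower at p under 0.05 in each.

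The Eif1a-like genes of chromosome 12 showed the widest difference. Their summed level was 607, 328 and 774 rescaled FPKM in siCtrl and 2679 and 3014 in siEtv5, a 5.00-fold ratio of means. Of 7 listed genes 6 were tested, all 6 were higher at an unadjusted p under 0.05, with differences of 2.14 to 3.07 on the log2 scale, and 3 were called. Gm5039 stood at 24.4, 16.8 and 31.7 rescaled FPKM in siCtrl and 207 and 201.3 in siEtv5 (3.07 ± 0.27; limma adjusted p = 0.0112). Gm8300 was at 71.8, 61.6 and 84.1 rescaled FPKM against 319.5 and 319.6 (2.14 ± 0.18; limma adjusted p = 0.0112). Gm2016 was at 144, 80.7 and 195 rescaled FPKM against 659 and 813 (2.47 ± 0.33; limma adjusted p = 0.0490). Every siEtv5 library stood above every siCtrl library for these 3 genes, and siCtrl 2 was the lowest for each. Gm5662, BB287469 and Gm2022, at 2.28, 2.42 and 2.65, had adjusted p-values of 0.0711 to 0.0739. Near-identical copies share reads: stretches of 100 bases found in another family member made up 60.7% of Gm2016, 54.8% of Gm5662, 7.67% of Gm8300 and 5.77% of Gm5039, so the division of signal among the first 2 is uncertain while that of the last 2 is less so.

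The sequences before the starts of these genes are close copies as well, and 4 of them are shown because the members were higher together. Each is the 250 bases before the annotated start in mm9, 5′ to 3′ on the gene's strand. Capitals in the last 3 mark bases that differ from Gm2016 or, inside the alignment, have no base of Gm2016 opposite them. Identity counts aligned bases only. Aligned to Gm2016 (chr12:89112270-89112519, plus strand), identity was 98.8% for Gm5662 (chr12:89512942-89513191, minus strand), 88.2% for Gm8300 (chr12:88855016-88855265, plus strand) and 87.3% for BB287469 (chr12:88959568-88959817, plus strand). The upstream region of Gm5039 could not be aligned to it beyond 8 bases, although that gene rose with the others.
Gm2016: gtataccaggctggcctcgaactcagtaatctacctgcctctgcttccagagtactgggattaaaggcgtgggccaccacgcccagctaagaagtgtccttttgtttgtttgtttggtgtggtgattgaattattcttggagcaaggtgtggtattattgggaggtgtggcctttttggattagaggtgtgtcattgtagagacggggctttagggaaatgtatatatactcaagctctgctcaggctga
Gm5662: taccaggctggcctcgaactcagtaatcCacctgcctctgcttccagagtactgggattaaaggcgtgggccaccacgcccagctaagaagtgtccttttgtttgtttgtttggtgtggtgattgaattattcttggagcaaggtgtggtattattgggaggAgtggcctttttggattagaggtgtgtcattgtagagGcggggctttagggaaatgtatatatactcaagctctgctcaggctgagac
Gm8300: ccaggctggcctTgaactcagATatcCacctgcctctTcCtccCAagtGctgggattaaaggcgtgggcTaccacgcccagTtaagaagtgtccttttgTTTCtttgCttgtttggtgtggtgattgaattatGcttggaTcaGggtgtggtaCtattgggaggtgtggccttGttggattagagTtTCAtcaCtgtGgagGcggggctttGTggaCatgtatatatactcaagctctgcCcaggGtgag
BB287469: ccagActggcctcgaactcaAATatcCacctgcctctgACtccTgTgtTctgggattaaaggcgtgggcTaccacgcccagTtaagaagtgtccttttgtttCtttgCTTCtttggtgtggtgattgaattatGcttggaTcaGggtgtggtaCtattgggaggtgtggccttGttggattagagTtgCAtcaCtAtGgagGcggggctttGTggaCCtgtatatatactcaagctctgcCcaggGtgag

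The Zscan4 genes were higher to a smaller and less even extent. Their summed level was 289, 269 and 372 rescaled FPKM in siCtrl and 615 and 680 in siEtv5, a 2.09-fold ratio. All 6 were higher in both siEtv5 libraries than in any siCtrl library, 5 at an unadjusted p under 0.05, and 1 was called. That gene, Zscan4e, had 0.931, 4.04 and 2.35 rescaled FPKM in siCtrl and 42.2 and 40.6 in siEtv5 (3.73 ± 0.44; limma adjusted p = 0.0316). The abundant members moved less, with Zscan4d at 0.60, Zscan4f at 0.99 and Zscan4c at 1.26 on the log2 scale. Stretches of 100 bases shared with another member made up 84.1% of Zscan4e, so its reads may come in part from its relatives.

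Other families of the program moved less. The 3 tested Usp17-like genes summed to 331, 261 and 625 rescaled FPKM in siCtrl and 710 and 705 in siEtv5, a 1.74-fold ratio, and none was called. The 5 Tdpoz genes, BTB domain proteins, summed to 651, 532 and 783 rescaled FPKM against 855 and 826, a 1.28-fold ratio. The 5 Obox homeobox genes summed to 721, 501.3 and 938 rescaled FPKM against 858 and 922, so the groups overlapped. Gm12794 was the fifth called gene, at 28.1, 23.7 and 29.1 rescaled FPKM against 99.7 and 81.8 (1.71 ± 0.21; limma adjusted p = 0.0391). Zfp352, a zinc finger gene of the stage, was at 110, 108 and 158 rescaled FPKM against 249 and 364, without passing the test (1.28 ± 0.24; limma adjusted p = 0.0957).

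**Figure D2:**
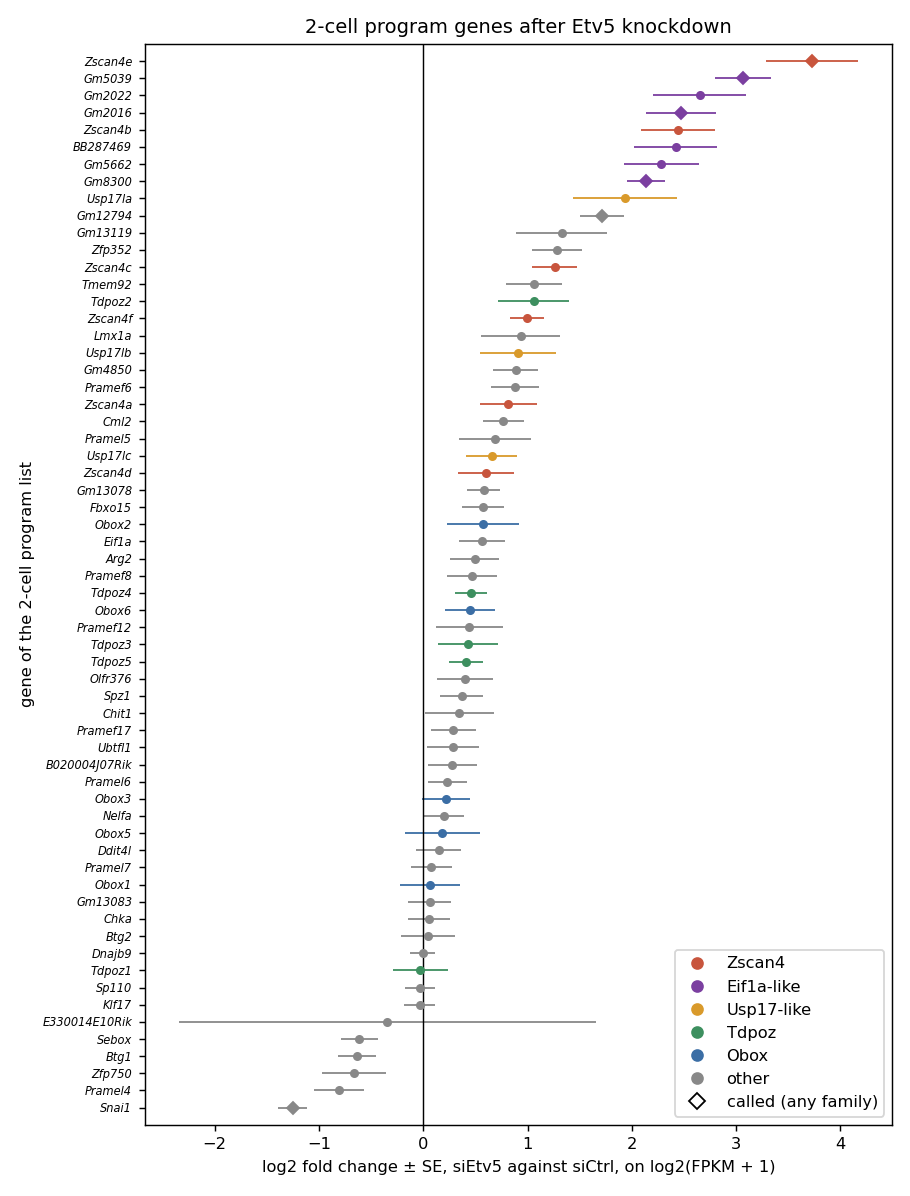
Difference between siEtv5 and siCtrl on the log2(FPKM + 1) scale for the 62 tested members of the 2-cell program, coloured by family, with bars for the standard error and diamonds for called genes. The 6 Eif1a-like genes lie between 2.14 and 3.07, Snai1 is the lowest at -1.25, and the 5 Obox genes lie between 0.07 and 0.57.

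Genes of the oocyte were also higher on the whole, without a call. Of 49 tested members of the oocyte and maternal effect list, 13 were higher (26.5%) and 1 lower (2.04%) at an unadjusted p under 0.05. Over all tested genes these shares were 7.56% and 7.93%. The median of the list was 0.38 on the log2 scale, beside 0.04 over all genes. Dppa3, a maternal factor that protects DNA methylation in the zygote, stood at 3177, 2646 and 4171 rescaled FPKM in siCtrl and 5796 and 6051 in siEtv5 (0.86; limma adjusted p = 0.0996). Oosp1, an oocyte secreted protein, was at 207, 171 and 153 rescaled FPKM against 288 and 290 (0.72; limma adjusted p = 0.135). Both siEtv5 libraries lay above all siCtrl libraries for these 2 genes and for Omt2b, a further oocyte transcript, at 0.63 (limma adjusted p = 0.178).

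Stage lists were taken from the siMlx embryos, whose libraries do not enter the comparison: genes that differed by more than 2 on the log2 scale between siMlx zygotes and siMlx 2-cell embryos, with no overlap of libraries. Of 2750 tested genes that rose to the 2-cell stage, 3 were called higher and 6 lower in siEtv5, 190 were higher and 431 lower at an unadjusted p under 0.05, and the median was -0.10. Of 1015 tested genes that fell to the 2-cell stage, 1 was called higher and 1 lower, 105 were higher and 36 lower at p under 0.05, and the median was 0.23. Among the other 7407 genes, 7 were called higher and 10 lower, 550 were higher and 419 lower at p under 0.05, and the median was 0.07. With all tested genes in 5 bins of transcript length, the median was -0.03 in the shortest bin and 0.14 in the longest. For transcripts of at least 2 kb alone, the medians of the rising and falling genes were -0.08 and 0.28. The part of length in these medians was otherwise not tested. Over 13 alternatives the median of the rising genes stayed between -0.13 and -0.07 and that of the falling genes between 0.20 and 0.31. These leave out siMlx as the control, because its libraries chose the lists. With that control the medians were -0.34 and 0.66. Etv5, Id1, Lzic, Gm5634, Snai1 and Tmem79 were the 6 rising genes called lower, and Gm12794, Gm8300 and Gm2016 the 3 called higher.

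**Figure D3:**
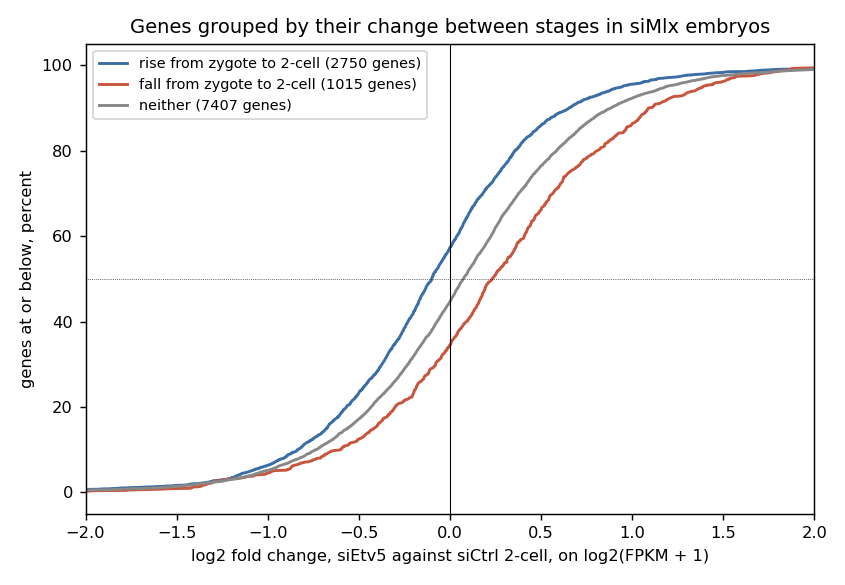
Cumulative distribution (percent of genes at or below each value) of the difference between siEtv5 and siCtrl, on the log2(FPKM + 1) scale, for genes that rose or fell between the zygote and 2-cell stages in siMlx embryos and for the remaining genes. The medians are -0.10 for 2750 rising genes, 0.23 for 1015 falling genes and 0.07 for 7407 others, and the 3 distributions overlap widely.

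Relatives and partners of ETV5 gave no call besides Etv5, where 0.251% of all tested genes were called. Of 19 tested ETS family genes only Etv5 was called, and of 38 tested FGF and ERK genes none was called. In the FGF and ERK list 5 were higher (13.2%) and 3 lower (7.89%) at an unadjusted p under 0.05, with a median of 0.08. Over all tested genes the shares were 7.56% and 7.93%. Spry2, a feedback inhibitor of ERK signaling, was at 22.9, 28.5 and 22.3 rescaled FPKM in siCtrl and 58.1 and 73.1 in siEtv5, but its difference of 1.38 ± 0.23 (SE) had a limma adjusted p of 0.0735. Fgf4, an FGF ligand, was at 8.27, 11.3 and 16.1 rescaled FPKM against 26.8 and 26.2 (1.14; limma adjusted p = 0.181). Fgfr3, a receptor, was at 0.708, 0 and 0.689 rescaled FPKM against 3.13 and 4.53 (limma adjusted p = 0.205). Of the other factors named in the study, Rfx1 stood at 10.8, 8.53 and 8.08 rescaled FPKM against 4.38 and 4.99 (-0.83; limma adjusted p = 0.295), while Etv1, Mlx, Nfya and Klf7 had differences of 0.72, 0.28, 0.26 and 0.14, none of them called.

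Each list of general cell functions held at most 1 call, where 0.251% of all tested genes were called. At that share most lists of this size would hold none, so a list without a call says little. Over all tested genes, 7.56% were higher and 7.93% lower at an unadjusted p under 0.05. Among 50 tested cell cycle genes none was called, with 2 higher and 7 lower (14.0%) at an unadjusted p under 0.05, among them Aurkb and Plk1, mitotic kinases, at -0.68 and -0.86, and Cdc25a, a phosphatase that activates cyclin-dependent kinases, at 0.82. Among 30 histone genes H2afx was called lower, with 1 higher and 6 lower (20.0%) at p under 0.05 and a median of -0.17. Gpx2 was the sole call among 35 glutathione and antioxidant genes, Fkbp3 among 41 heat shock and chaperone genes, where 1 was higher and 6 lower (14.6%) at p under 0.05, and Romo1 among 35 genes of the mitochondrial inner membrane and import. No call was made among 32 early embryo transcription factors, 33 p53 and apoptosis genes, 22 interferon and double-stranded RNA response genes or 14 genes of the RNA interference machinery. The RNA interference list had 0 genes in either direction at p under 0.05, and the interferon list 2 higher and 1 lower. At the same p the p53 and apoptosis list had 5 higher and 5 lower (15.2% each). The glutathione and antioxidant list had 6 higher (17.1%) and 3 lower (8.57%). The mitochondrial list had 5 higher (14.3%) and 2 lower (5.71%), and the early embryo factors 1 higher and 0 lower. Marker lists of blood, cumulus and granulosa, later embryo and sperm cells, with 3, 5, 6 and 4 tested members, had no call.

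Exon coverage showed where within a gene the signal lay. Of internal exons up to 100 bases long, in transcripts with at least 3 exons and an exon above a coverage of 5, 89.1 to 90.8% were listed at 0 in a library, against 20.2 to 24.6% of internal exons longer than 300 and up to 500 bases. For 3′ terminal exons above 500 bases the share was 2.76 to 4.38%. The measured level of a gene thus rests mainly on its long exons. Fkbp3 had nearly all its coverage in an exon of 124 bases, at 13.2, 21.2 and 25.8 per 100 Mb in siCtrl and 0 in both siEtv5 libraries, with at most 0.533 in any other exon, and Romo1 had coverage only in exons of 128, 131 and 193 bases. Fkbp3 overlaps Prpf39 on the opposite strand, which stood at 12.7, 14.5 and 12.3 rescaled FPKM against 10.8 and 13.7. Romo1 overlaps Nfs1 on the opposite strand, which stood at 18.4, 15.9 and 14.02 rescaled FPKM against 16.04 and 22.3 (0.23; limma adjusted p = 0.730). Reads in a stretch shared by such a pair cannot be told apart because counting did not use strand. The covered 124-base exon of Fkbp3 (chr12:66174802-66174925) lies outside Prpf39, which ends at 66164373. In Romo1 the 128-base exon starts inside Nfs1, which ends at 155969922. The 131-base and 193-base exons of Romo1 lie beyond that end.

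In Azin1 and Ptp4a1 the exons did not move together. The 3043-base last exon of Azin1 had 9.40 to 11.7 of coverage per 100 Mb in siCtrl and 0.0422 to 0.101 in siEtv5, while its 358-base exon had 17.6 to 25.6 and 14.6 to 16.6. The 3021-base last exon of Ptp4a1 had 15.2 to 24.8 in siCtrl and 0.571 to 0.929 in siEtv5, while its 602-base exon had 24.0 to 41.8 and 16.9 to 19.1. The last exons thus fell more than these upstream exons in both siEtv5 libraries. The same exons also varied elsewhere: the 3043-base exon of Azin1 had 0.0784 to 0.0998 in zygote siCtrl and 1.76 to 3.18 in zygote siEtv5, and the 3021-base exon of Ptp4a1 had 0.131 to 0.257 in 2-cell siMlx and 0.822 to 26.6 in 2-cell siRfx1.

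After these values were seen, the last exon was compared with the other exons for every gene with enough coverage in both. Of 3282 genes, 5 (0.152%) changed in the log2 ratio by more than 1 with an adjusted p under 0.05, and 352 had an unadjusted p under 0.05. The ratio was lower in Azin1 (-3.81 ± 0.27 SE; limma adjusted p = 0.0049), in Ptp4a1 (-3.32 ± 0.23; limma adjusted p = 0.0049) and in Zscan4e. It rose in Tgoln1 and Med14. Since Azin1 and Ptp4a1 prompted the comparison, their values in it are a description. Another pseudocount, a longer minimum for the other exons or 1 library left out, all chosen after seeing the data, gave 4 to 9 genes. Without siEtv5 replicate 2, Azin1 no longer passed (-3.70; limma adjusted p = 0.0634).

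**Figure D4:**
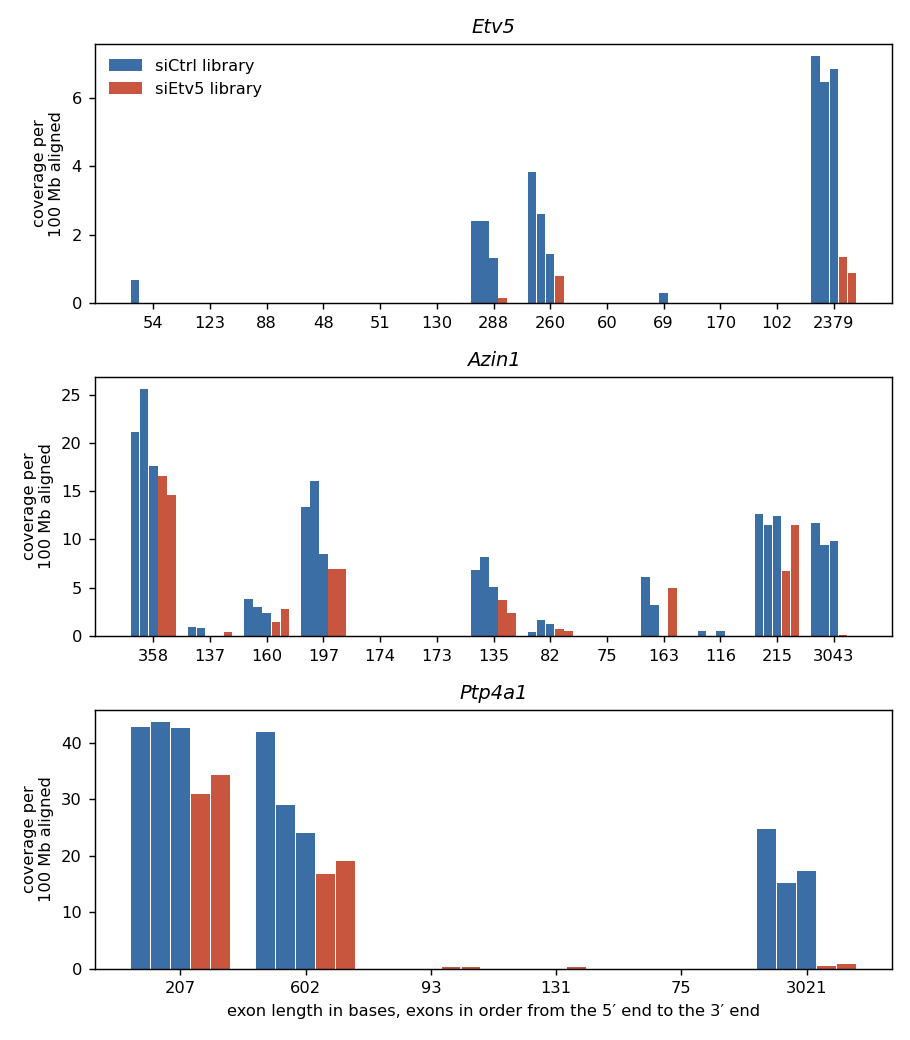
Coverage per 100 Mb aligned of exons of Etv5, Azin1 and Ptp4a1 in the 3 siCtrl and 2 siEtv5 2-cell libraries, as 1 bar per library for each exon from the 5′ to the 3′ end, labelled by exon length. The last exons of Azin1 and Ptp4a1 fall to 0.0422 to 0.101 and 0.571 to 0.929 in siEtv5, while their 358-base and 602-base exons stay at 14.6 or above.

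The other knockdown groups of 2-cell embryos were tested against the same siCtrl libraries, so their values are given side by side with those of siEtv5, in deposited FPKM for levels. Etv5 itself was low in siRfx1, at 9.19, 6.73 and 12.6 FPKM, and stood at 16.8, 29.9 and 52.4 FPKM in siMlx. Its difference from siCtrl in siRfx1 was -1.53 ± 0.44 (SE; limma adjusted p = 0.102), beside -2.52 in siEtv5. Several of the genes called lower in siEtv5 also passed an adjusted p of 0.05 in siRfx1. Snai1 had 42.1, 67.4 and 38.3 FPKM there (-1.65; limma adjusted p = 0.0384), H2afx 73.5, 126 and 104 FPKM (-1.62; limma adjusted p = 0.0328) and Gm5634 52.4, 44.6 and 38.3 FPKM (-1.57; limma adjusted p = 0.0388). Gpr19 and Fkbp3 were listed at 0 in all 3 siRfx1 libraries (limma adjusted p = 0.0193 and 0.0145), and Cx3cl1 had 0 to 1.31 FPKM (limma adjusted p = 0.0414). These 6 are all of the 17 that passed it in siRfx1, and the share over all tested genes is not given here. The paper reports many downregulated genes after Rfx1 knockdown at this stage. Because the siCtrl libraries are shared, genes chosen as lower in siEtv5 are also more likely to be lower in siRfx1 and siMlx. Spin1, called higher in siEtv5, was also higher in siRfx1, at 741, 479 and 747 FPKM (1.93; limma adjusted p = 0.0123). Other genes stood apart: Azin1 was at -0.38 and Gspt2 at 0.19 in siRfx1, neither passing the test. In siMlx, Mir451 passed it (limma adjusted p = 0.0229), while Gpr19 had 0, 0 and 9.63 FPKM, Fkbp3 0, 0 and 25.5 FPKM and Cx3cl1 0.21 to 1.78 FPKM. Gpx2 was above 24 FPKM in siEtv5 and at most 0.77 in every other library of the series. Low Etv5 and low values of several lower genes thus also occurred in 2-cell embryos that had received no Etv5 siRNA. The siRfx1 2-cell libraries were shallower, at 119 to 174 Mb, and the part of depth in these values was not tested.

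The effect of siEtv5 at the 2-cell stage was compared with that in zygotes, harvested 14 hours after fertilization, by an interaction term over 11 libraries. Of 11095 genes tested, 35 (0.315%) differed between stages by more than 1 on the log2 scale with an adjusted p under 0.05, 11 more positive and 24 more negative at the 2-cell stage. At an unadjusted p under 0.05 there were 2005. Of the 24, 21 had a positive effect in zygotes, and of the 11, 8 had a negative one. The genes were chosen by a difference that subtracts the zygote effect, which favors such opposite signs, so these counts are a description. In 4 of the 35 genes, Cx3cl1 among them, the zygote libraries of both groups were listed at 0. Socs1 was 1.51 higher in siEtv5 zygotes and 1.39 lower in siEtv5 2-cell embryos, a difference of -2.90 ± 0.35 (SE; limma adjusted p = 0.0073). Fam46b had effects of 1.79 in zygotes and -1.46 at the 2-cell stage, and H2afx of 1.22 and -1.29. H1fx, a linker histone, had 1.31 and -2.16, Azin1 had 1.28 and -2.13, Fkbp3 had -0.56 and -4.49, and Gm11487 had -1.14 and 1.80. In a fit of the zygotes alone, no gene called at the 2-cell stage and tested there had a limma adjusted p under 0.05. That adjusted p was 0.301 for Socs1, Fam46b and Azin1 and 0.332 for H2afx. Zscan4e, at -0.52 and 3.64, and Gm5039, at -0.44 and 3.02, had the largest positive differences among called genes whose mean reached 5 FPKM. Without zygote siEtv5 replicate 2 the number rose to 710, which included all 35.

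**Figure D5:**
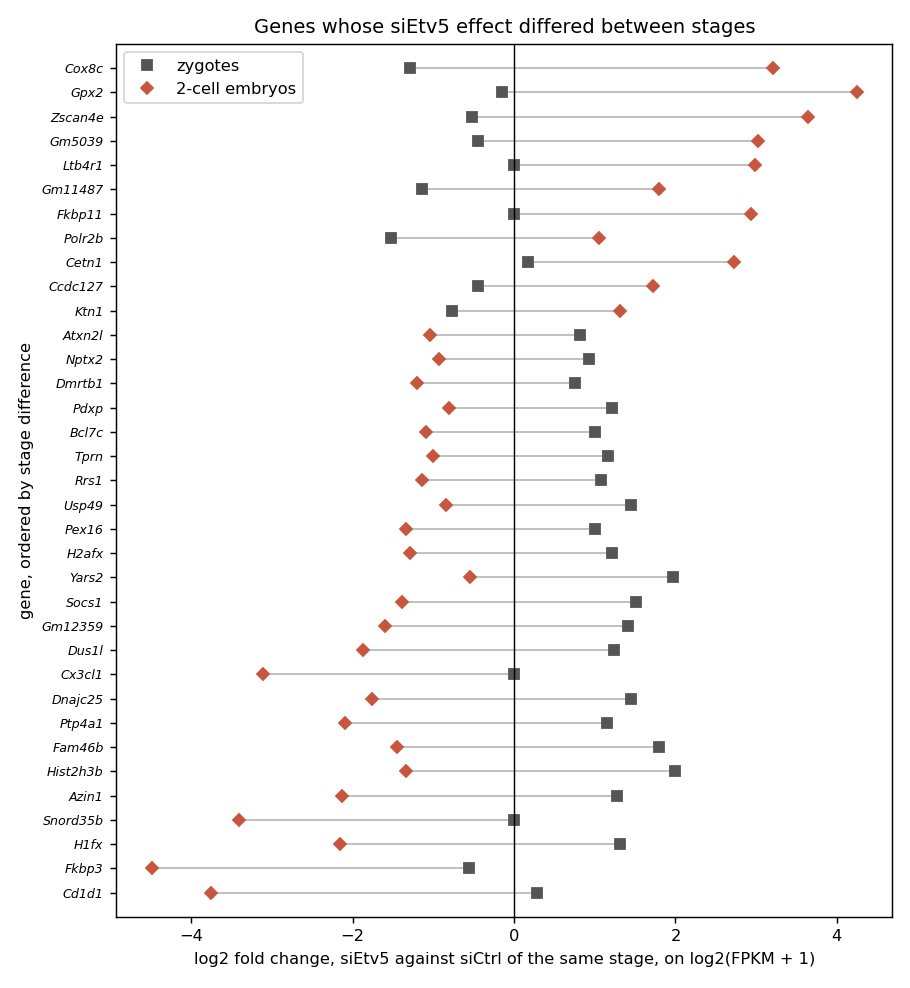
Effect of siEtv5 against siCtrl of the same stage, on the log2(FPKM + 1) scale, in zygotes (squares) and 2-cell embryos (diamonds) for the 35 genes whose effect differed between stages, 1 row per gene. Socs1, H2afx and Fam46b lie above 1 in zygotes and below -1 in 2-cell embryos, and Zscan4e and Gm5039 lie below 0 in zygotes and above 3 in 2-cell embryos.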

How the data were processed

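The authors aligned reads to mm9 with STAR (2.5.2b in the submitters' notes) and quantified RefSeq transcripts with StringTie (1.3.4 in the notes). The deposited transcript records hold FPKM and coverage, not counts, and the authors ran edgeR on counts that were not analysed here. Because FPKM sits inside an attribute field, its unit was recorded as other; the planned test on FPKM was unchanged. Here FPKM was summed per gene name (22619 genes from 29306 transcripts, 976 unnamed transcripts left out). Libraries were rescaled by the median ratio (factors 0.987 to 1.017), genes averaging under 1 FPKM were dropped, and log2(FPKM + 1) was fitted with limma 3.58.1 (R 4.3.3) with a mean-variance trend, adjusted by Benjamini-Hochberg. Aligned bases came from coverage divided by FPKM. Reads carry no molecular identifiers, so depth bounds reads and not molecules. The fit was tested on simulated log-normal data, with 10763 genes tested. Changes were put only into genes with a siCtrl mean of at least 5 FPKM. Of these, 17.9% of 2-fold, 83.6% of 4-fold and 95.5% of 8-fold changes were recovered, with 9 false calls among the unchanged genes. Genes listed at 0 in some libraries and high in others were not simulated. Promoters were read from the mm9 genome; 98.9% of 189054 annotated introns in the files had GT-AG ends in it. The text names every called gene, its overlapping genes, up to 3 genes per list by call or lowest p, and the factors of the study. It also names the 3 largest stage differences each way above a mean of 5 FPKM. Some uncalled list genes are left out. The 2-cell family members, Zfp352, the last-exon genes, Foxl2, Tnfaip6 and the markers listed at 0 were named after their values were seen. Members and lists were chosen with earlier results of these data known. Alternatives changed the pseudocount, filter, scaling, control group, fit, replicate block, transcript length or libraries. 1 promoter sequence is not reported here.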

Additional observations from a re-analysis of the deposited data

Results flagged for a closer look

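In 14 named genes the effect of siEtv5 at the 2-cell stage differed from that in zygotes by the interaction test in limma, and each difference below is the 2-cell effect minus the zygote effect on the log2(FPKM + 1) scale. It was positive for Cox8c at 4.49, Gpx2 at 4.41, Zscan4e at 4.17, Gm5039 at 3.46 and Gm11487 at 2.94. It was negative for Cd1d1 at -4.04, Fkbp3 at -3.93, H1fx at -3.46, Azin1 at -3.40, Fam46b at -3.25, Ptp4a1 at -3.24, Cx3cl1 at -3.11, Socs1 at -2.90 and H2afx at -2.51. For Cx3cl1 the zygote libraries of both groups were listed at 0, so its value is the 2-cell effect alone. The 2 stages used different libraries, and no single library was shared between the effects.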

How the results depend on the processing

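All 28 called genes kept their direction in every alternative in which they were tested, except Mir451, which was 3.15 higher against siMlx as the control. The number of calls did not hold. A pseudocount of 0.1 gave 11 calls (3 higher, 8 lower; 2-cell program 2 higher), no filter 1 (1, 0; 0), all 4 groups in a single fit 1 (1, 0; 0), voom on estimated fragments 7 (3, 4; 3), siMlx as the control 3 (2, 1; 1) and transcripts of at least 2 kb 11 (4, 7; 0). Leaving out 1 library gave 1 to 16 calls, 0 to 10 higher and 0 to 6 lower, and 0 to 6 of the 2-cell program: 1 without siCtrl 1, 16 without siCtrl 2, 3 without siCtrl 3 and 1 without either siEtv5 library. The single call was Romo1 with no filter and without siCtrl 1, Gpx2 in the fit of 4 groups, Trim13 without siEtv5 1 and Utp14b without siEtv5 2. Filtering at 5 FPKM gave 35 calls, 27 of them among the 28, and FPKM as deposited 34, all 28 included. Etv5 was -2.52 with no filter (adjusted p = 0.0734), -2.50 with 4 groups (0.372), -2.18 against siMlx (0.126) and -2.82 to -2.23 with 1 library left out (0.0625 to 0.199); its adjusted p was under 0.05 in 5 of 14 alternatives. Stage differences numbered 53 with a pseudocount of 0.1 and 12 to 710 with 1 library left out. Against siMlx as the control, Fgf4 was -0.11, Rfx1 0.47 and Nfs1 -0.61; with 1 library left out, Nfya ranged from -0.24 (without siCtrl 2) to 0.57 and Prpf39 from -0.25 to 0.061 (without siEtv5 1). The cause of these changes was not tested, beyond the smaller number of libraries or genes.

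With the replicate number as a block, 1 gene (Romo1) was called, 1 higher and 0 lower, 0 of the 2-cell program, Etv5 was -2.54 (adjusted p = 0.0858), and 14 stage differences remained, all among the 35. The numbers are not stated to mark a shared litter or day, and deviations of the 2 same-numbered pairs correlated at -0.0024 and -0.0106. With 2 siEtv5 libraries their deviations mirror each other, so the check says little, and the libraries were taken to share only a number.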
